A study of Mus musculus with 4 samples.

Results

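The cytosolic ribosomal protein genes were taken as the protein-coding mouse genes whose symbols begin with Rpl or Rps and a number, with Rplp0, Rplp1, Rplp2 and Rpsa added, and with the Rps6k kinases and pseudogene symbols left out. The rule found 89 of 21000 protein-coding genes with curated RefSeq transcripts on mm10. By annotated role, 46 encode proteins of the large subunit with its P stalk, 31 encode proteins of the small subunit, 11 are paralogs of another member, and 1, Rps19bp1, encodes a nucleolar protein that binds RPS19 and is not part of the ribosome. The question asked of them was where RUNX1 sits on chromatin near these genes in the fetal ovary.

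RUNX1 occupancy was measured by ChIP-seq, in which DNA bound to a protein in fixed chromatin is recovered with an antibody and sequenced. The material was XX gonads of CD1 embryos at E14.5 with no treatment named in the labels, in a RUNX1 ChIP group of 2 samples and an input group of 2 samples without antibody. The labels give pools of 80 to 100 ovaries and 20 to 30 µg of chromatin for each ChIP with 10 µl of antibody, while the study's methods give a larger number of ovaries. Whole ovaries were used, so a peak does not say in which ovarian cell type RUNX1 was bound.

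Each ribosome holds a single copy of nearly every cytosolic ribosomal protein, so cells make these proteins in matched amounts. Their genes are active in almost all cell types, have short GC-rich promoters without a strong TATA box, and are mostly short, with introns that often carry small nucleolar RNAs (snoRNAs). Many of their mRNAs begin with a tract of pyrimidines, through which mTOR signalling controls their translation. RUNX1 is a transcription factor of the supporting cells of the fetal ovary and of blood cells, and its DNA-binding domain recognises the core TGTGGT or TGCGGT on either strand.

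The replicates were merged before peaks were called, so the deposited list gives 1 set of 10494 peaks, each 300 bp wide, with a fold over background and a p-value from the peak caller. The list gives no value per replicate, so no error was attached to a fold and no test between groups was run. Reads and signal tracks were not analysed here. Of these peaks, 10490 lay on assembled chromosomes and were used. Their folds ran from 4.01 to 358.22 with a median of 6.41, and the list does not say how many reads each peak rests on. Binomial intervals below are exact at 95%, and cover the count of genes or peaks only.

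The 5 peak sequences printed first belong to member genes with high folds, and show the kind of DNA that the list holds at these starts. Each was read from mm10 along the strand of its gene, 5′ to 3′, with a RUNX core, or its complement, in capitals.
Rps23 peak, chr13:90923034-90923333, plus strand: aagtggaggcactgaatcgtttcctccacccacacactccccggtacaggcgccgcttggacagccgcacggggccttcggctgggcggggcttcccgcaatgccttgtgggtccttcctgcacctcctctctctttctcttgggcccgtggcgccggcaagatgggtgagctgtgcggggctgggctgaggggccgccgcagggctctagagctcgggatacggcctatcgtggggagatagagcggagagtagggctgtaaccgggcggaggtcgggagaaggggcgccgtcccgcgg
Rps2 peak, chr17:24719834-24720133, plus strand: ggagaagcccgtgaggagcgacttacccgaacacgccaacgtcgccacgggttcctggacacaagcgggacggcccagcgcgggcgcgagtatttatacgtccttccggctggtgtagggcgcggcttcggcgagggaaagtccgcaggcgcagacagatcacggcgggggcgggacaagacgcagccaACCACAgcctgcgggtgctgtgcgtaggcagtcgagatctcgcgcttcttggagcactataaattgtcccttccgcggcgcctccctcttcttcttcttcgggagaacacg
Rpl27a peak, chr7:109518931-109519230, plus strand: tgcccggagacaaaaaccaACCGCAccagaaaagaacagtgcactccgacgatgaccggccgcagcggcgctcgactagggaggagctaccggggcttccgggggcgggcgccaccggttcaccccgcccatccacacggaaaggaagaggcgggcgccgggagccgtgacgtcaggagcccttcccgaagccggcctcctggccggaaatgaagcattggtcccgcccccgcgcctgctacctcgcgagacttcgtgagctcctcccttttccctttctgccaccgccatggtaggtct
Rps19 peak, chr7:24884518-24884817, plus strand: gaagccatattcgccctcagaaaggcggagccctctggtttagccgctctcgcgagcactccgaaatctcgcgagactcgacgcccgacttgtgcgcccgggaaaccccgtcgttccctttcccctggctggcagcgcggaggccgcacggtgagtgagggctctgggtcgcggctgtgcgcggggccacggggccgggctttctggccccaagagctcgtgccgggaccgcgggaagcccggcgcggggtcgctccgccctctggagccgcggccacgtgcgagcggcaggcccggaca
Rpl18 peak, chr7:45717864-45718163, plus strand: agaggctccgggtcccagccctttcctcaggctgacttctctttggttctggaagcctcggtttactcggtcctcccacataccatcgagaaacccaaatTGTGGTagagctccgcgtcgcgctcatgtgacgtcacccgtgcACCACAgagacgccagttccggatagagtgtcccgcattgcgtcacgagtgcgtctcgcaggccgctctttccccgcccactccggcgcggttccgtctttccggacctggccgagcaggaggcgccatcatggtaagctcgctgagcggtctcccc
The Rps23 and Rps19 peaks held no RUNX core in 300 bases. The Rps2 and Rpl27a peaks each held 1 and the Rpl18 peak held 2, on opposite strands. All 5 covered the transcription start site (TSS) of their gene.

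RUNX1 peaks were found at the starts of most ribosomal protein genes. Of the 89 members, 58 had a peak within 1 kb of a TSS, which is 65.2% (interval 54.3% to 75%), beside 37.4% of all protein-coding genes. By the nearest TSS, 53 members (59.6%, interval 48.6% to 69.8%) were assigned at least 1 peak, beside 39.1% of all protein-coding genes. A TSS lay inside a peak in 30 members (33.7%), beside 17% of all protein-coding genes. The shares of the members were thus higher than the background on all 3 measures, with no test of the difference.

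Both subunits had peaks to a like extent. Within 1 kb of a TSS, a peak was present at 32 of 46 large subunit genes (69.6%, interval 54.2% to 82.3%) and at 22 of 31 small subunit genes (71%, interval 52% to 85.8%). Paralogs had fewer, with 3 of 11 (27.3%), but the interval of 6.02% to 61% is wide and includes the background. A peak within 1 kb was not particular to the cytosolic ribosome. Genes of mitochondrial ribosomal proteins had one in 53 of 78 cases (67.9%) and genes of proteasome subunits in 23 of 40 (57.5%).

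**Figure D1:**
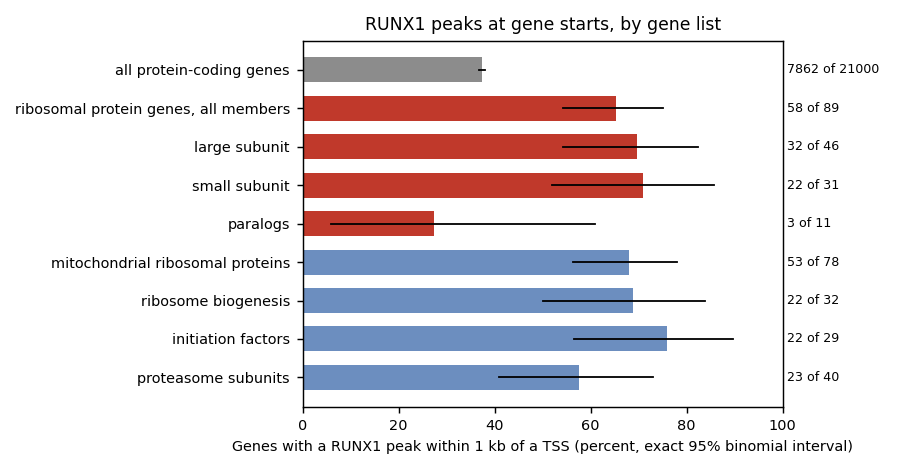
Bars give the percent of genes in each list with a RUNX1 peak within 1 kb of a TSS, black lines the exact 95% binomial interval, and the text at the right the counts. Large and small subunit genes reach 69.6% and 71%, near the mitochondrial ribosomal protein genes at 67.9% and above all protein-coding genes at 37.4%, while paralogs stand at 27.3%.

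The heights of the 60 peaks nearest to members were close to those of the list as a whole. Their folds ran from 4.23 to 27.77 with a median of 6.94, beside 6.41 over all peaks. The 52 of them within 1 kb of a member TSS had a median of 7.12, beside 6.48 for all 7969 peaks within 1 kb of a TSS. Of these 52, 18 had a fold of 8 or more (34.6%, interval 22% to 49.1%), beside 32.2% of all peaks near a TSS. The share of strong peaks was therefore near the background.

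Among small subunit genes, the strongest peak was at Rps23, whose protein lies in the decoding centre and affects the accuracy of translation. Its fold was 27.77, higher than that of 98.8% of all peaks, and its midpoint was 61 bp downstream of the TSS, in exon 1. The next was Rps2 at 15.97, from a protein at the mRNA entry of the small subunit. That peak lay equally close to Snhg9, a snoRNA host gene read in the opposite direction from a start 98 bp away. Rps19, which is often mutated in Diamond-Blackfan anaemia, had a fold of 12.17 with the peak midpoint in exon 1.

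Rps3, whose protein also lines the mRNA entry, had a peak of fold 10.05 in intron 1, and Rps21 one of 9.49 in exon 1 that was tied with the microRNA gene Mir3091. Rpsa, also known as the laminin receptor, had a peak of fold 8.10 in intron 1. Rps14, whose loss is tied to the anaemia of the 5q deletion, had a peak of fold 7.07 over its TSS. By the strongest peak of each gene, the lowest values were at Rps3a1 with 4.63 and at Rps6, the substrate of S6 kinase, with 4.47. Both peaks covered the TSS, as did the stronger peaks of Rps23, Rps2 and Rps19, while those of Rps3 and Rpsa did not.

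Among large subunit genes, the strongest peak was at Rpl17, with a fold of 17.28 and a midpoint in intron 1, 285 bp downstream of the TSS. Rpl27a followed with 15.74 and a midpoint at -115 bp, that is upstream of the TSS. Rpl18 had a fold of 11.21, in a promoter that it shares with Sphk2, a sphingosine kinase gene that starts 69 bp away in the opposite direction. Rpl19 had 9.67 in exon 1, Rpl30 had 9.42 just upstream, and Rpl10a had 9.40 across its TSS.

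Rpl5 and Rpl11, which together with 5S rRNA bind and restrain MDM2 when ribosome assembly fails, had similar peaks. Their folds were 7.82 and 7.74, and both midpoints lay in intron 1, at 242 and 167 bp from the TSS. The P stalk proteins, which recruit translation factors, differed in position. Rplp2 had a peak of fold 6.91 over its TSS and Rplp1 one of 4.94 in intron 1. Rplp0, the base of the stalk, had no peak within 1 kb. The weakest large subunit gene by its strongest peak was Rpl7 with 4.72 and a midpoint at -491 bp.

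**Figure D2:**
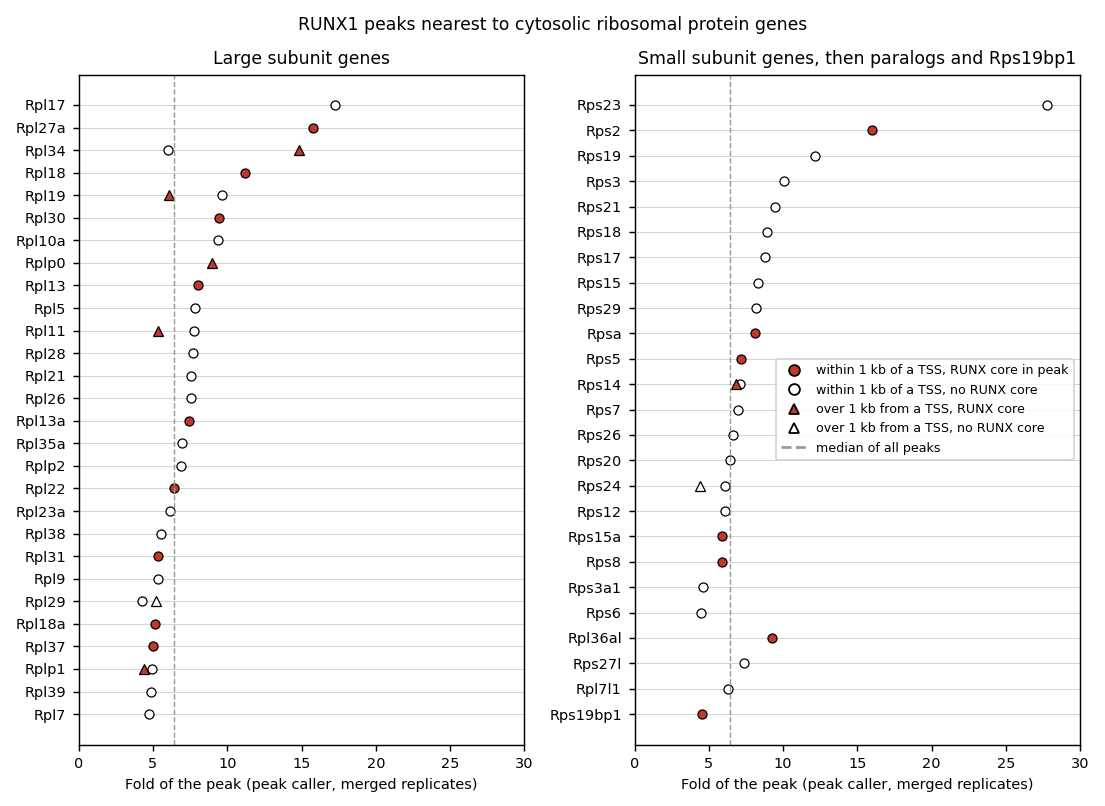
Each row is a gene nearest to at least 1 RUNX1 peak and each symbol a peak, placed by its fold (linear axis, peak caller's value on merged replicates), with circles within 1 kb of a TSS, triangles farther away, red fill for a RUNX core and a dashed line at the median of all peaks, 6.41. Rps23 at 27.77 stands apart at the top, most genes lie between 4 and 10, and peaks with a core run from 4.40 to 15.97 beside 4.23 to 27.77 for those without.

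Fold and p-value did not put the peaks in the same order. Of the 10 member peaks with the highest fold, 5 were also among the 10 with the lowest p-value. The lowest p-value was that of Rpl18 (2.13e-73), which ranked 7 by fold. Rps23, first by fold, ranked 9 by p-value (1.35e-32). Rpl22 ranked 5 by p-value (1.6e-38) with a fold of only 6.40, and it was named after these ranks were seen. The list does not give the reads behind either value.

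Of the paralogs, 3 were nearest to a peak. Rpl36al, a close copy of Rpl36a, had a fold of 9.26, the p53-responsive Rps27l one of 7.40, and Rpl7l1 one of 6.29. The peak of Rpl36al lies in a promoter shared with Mgat2, which starts 91 bp away in the opposite direction. The other 8 paralogs were Rpl10l, Rpl22l1, Rpl32l, Rpl37rt, Rpl39l, Rpl3l, Rps23rg1 and Rps27rt, and were nearest to none. They include Rpl10l and Rpl39l, known from male germ cells, and Rpl3l, known from striated muscle. Rps19bp1 had a weak peak over its TSS, of fold 4.57.

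Beside a peak at the promoter, 7 members were nearest to a second, distant one. These were Rpl34, Rpl11, Rps14, Rpl29, Rpl19, Rplp1 and Rps24. With the single peak of Rplp0 this made 8 peaks over 1 kb from a member TSS. Distances are from the edge of the peak to the TSS. In Rpl34 the distant peak was the stronger, with a fold of 14.81 at 73465 bp upstream, beside 5.98 at the promoter. In Rpl29 it was 5.18 at 10918 bp upstream beside 4.23 at the start, the lowest fold of all member peaks.

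The other distant peaks were weaker than those at the promoter of the same gene. Rps14 had 6.85 at 12348 bp upstream beside 7.07, Rpl19 had 6.08 at 8923 bp downstream beside 9.67, and Rpl11 had 5.32 at 12944 bp upstream beside 7.74. Rplp1 had 4.40 at 36919 bp downstream and Rps24 had 4.38 at 288270 bp downstream. The peak assigned to Rplp0, of fold 8.99, was 20537 bp upstream, inside Pxn, the gene of the focal adhesion protein paxillin. A nearest start does not show which gene such a peak acts on, and the distances reach far beyond a promoter.

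No peak was nearest to 36 members. Of these, 28 were canonical genes. The 18 large subunit genes were Rpl10, Rpl12, Rpl14, Rpl15, Rpl23, Rpl24, Rpl27, Rpl3, Rpl32, Rpl35, Rpl36, Rpl36a, Rpl37a, Rpl4, Rpl41, Rpl6, Rpl7a and Rpl8, and the small subunit genes included Rps10, Rps13, Rps16, Rps25, Rps27, Rps27a, Rps28, Rps4x and Rps9. The other 8 were the paralogs named above. A gene without a listed peak may still have had signal under the authors' limits.

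For 6 of these 36 a peak did lie within 1 kb of the TSS but nearer to the start of another gene, and these 6 were picked out after that was seen. In 4 cases the other gene started 155 to 456 bp away on the opposite strand. Rpl15 had a peak of fold 6.13 nearer to Nkiras1, an inhibitor of NF-kB signalling. Rps25 had one of 4.63 nearer to Trappc4, a vesicle transport gene. Rpl4 had one of 4.50 at the kinetochore gene Zwilch, and Rpl7a one of 4.17 at the Mediator gene Med22.

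In the other two cases the nearer start was a snoRNA inside the ribosomal protein gene itself. Rpl23 had a peak of fold 6.74 whose midpoint was 432 bp downstream of its own TSS and whose edge was 92 bp from Snora21. Rpl32 had one of 4.17 with the midpoint 408 bp downstream and the edge 83 bp from Snora7a. Assignment to the nearest start gave these peaks to the snoRNA. Rps18, which had a peak of its own with a fold of 8.95, had another of 6.48 over the start of Vps52, a trafficking gene 135 bp away on the other strand.

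Peaks at the ribosomal protein genes lay mostly just inside the gene. Of the 52 within 1 kb of a TSS, the midpoint was in exon 1 for 17, in intron 1 for 23, in intron 2 for 2, in intron 3 for 1 and upstream for 9. Distances were taken from the nearest annotated TSS of the gene, while exons and introns are those of any of its curated transcripts, so that Rps19, Rpl10a and Rps27l have a midpoint inside the gene that lies upstream of that nearest TSS. The median midpoint was 98.5 bp downstream of the TSS, beside 106 bp for peaks within 1 kb of protein-coding starts. Downstream midpoints made up 40 of 52 (76.9%, interval 63.2% to 87.5%), beside 70.1%. Midpoints over 150 bp downstream, so that the peak no longer reached the TSS, made up 32.7% of the member peaks beside 40.5%.

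**Figure D3:**
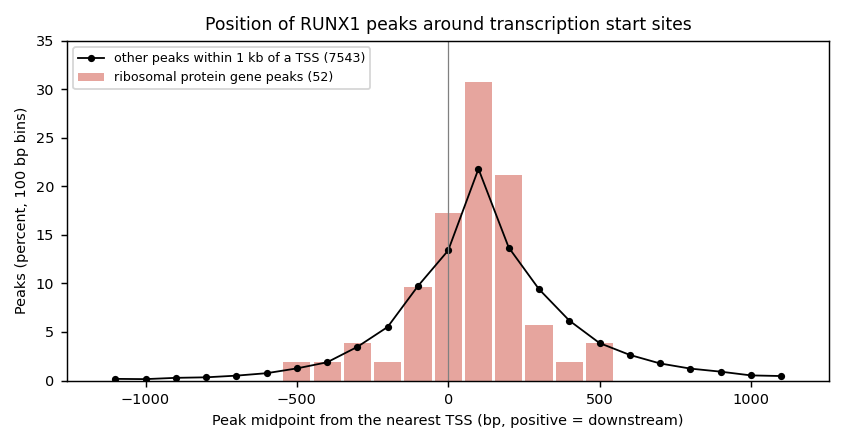
Bars show the percent of the 52 ribosomal protein gene peaks in bins of 100 bp by the distance of the peak midpoint from the nearest TSS (bp, positive is downstream), and the black line the same for the 7543 other peaks within 1 kb of a protein-coding TSS. Both are highest in the bin around 100 bp downstream, with 30.8% of member peaks and 21.8% of the others, and no member peak near a TSS has its midpoint outside the range from -491 to 529 bp.

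A RUNX core was about as common in these peaks as in other peaks near a TSS. The letters TGTGGT or TGCGGT, on either strand, were in 16 of the 52 member peaks within 1 kb of a TSS (30.8%, interval 18.7% to 45.1%), beside 34.2% of all 7969 such peaks. Small subunit genes had a core in 5 of 21 peaks and large subunit genes in 9 of 27. TGTGGT was in 13.5% beside 13.2%, and TGCGGT in 17.3% beside 23.5%. A core in the middle 100 bp of the peak was present in 11.5% beside 16.4%. Of the 12 member peaks of highest fold, 5 held a core.

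A larger share of distant peaks held a core, at members and elsewhere. A core was in 6 of the 8 member peaks over 1 kb from a TSS (75%, interval 34.9% to 96.8%), beside 57.8% of the 2521 peaks that lay over 1 kb from any TSS. The distant peaks also had a lower GC content, with a median of 55.67% beside 66.33% for the member peaks near a TSS. The part of base composition in the difference was not tested.

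Of the 24 cores in the 60 member peaks, 12 were TGTGGT and 12 TGCGGT, and 11 lay within 50 bp of the peak midpoint. Windows of 30 bases are printed along the strand of the core, with the core in capitals. The first are from the distant peaks with a core, other than that of Rps14. The rest are from the strongest peaks with a core near a TSS after those of Rps2, Rpl27a and Rpl18, which are printed whole above. They show the flanking bases, since RUNX proteins prefer T after the core.
Rpl34, -73655 bp from the TSS, chr3:130804039-130804068, minus strand: cctcggcagattTGCGGTtcgtgttatctt
Rplp0, -20641 bp from the TSS, chr5:115538812-115538841, plus strand: gcaagaaaattcTGCGGTtgcacgaggtta
Rpl19, 9079 bp from the TSS, chr11:98035989-98036018, plus strand: ttcccaccctctTGCGGTctggcagcacca
Rpl11, -13027 bp from the TSS, chr4:136066406-136066435, minus strand: ccctttcttccaTGTGGTcccaggtatgag
Rpl11, -13167 bp from the TSS, chr4:136066546-136066575, minus strand: gaagactgagtcTGTGGTtaaaacatgaat
Rplp1, 37097 bp from the TSS, chr9:61877399-61877428, plus strand: gggcttggtttaTGTGGTtctagggatgga
Rpl30, -60 bp from the TSS, chr15:34443322-34443351, plus strand: gcgagagtagtcTGCGGTagttggttgcta
Rpl36al, 51 bp from the TSS, chr12:69184002-69184031, minus strand: ctgttcggcgcgTGCGGTtgagtcggggat
Rpsa, 251 bp from the TSS, chr9:120128003-120128032, plus strand: gcggggcccttcTGCGGTtcgcgccacgct
Rpl13, 53 bp from the TSS, chr8:123102389-123102418, plus strand: cccagggtgcttTGCGGTgcccggtccttt
T followed the core in 11 of the 24 sites (45.8%, interval 25.6% to 67.2%). Near a TSS it was 7 of 17 (41.2%, interval 18.4% to 67.1%), beside 25.5% of 3215 cores in all peaks near a TSS. At distant sites it was 4 of 7, beside 47.2% of 1978 cores. This count was added after the windows had been seen.

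**Figure D4:**
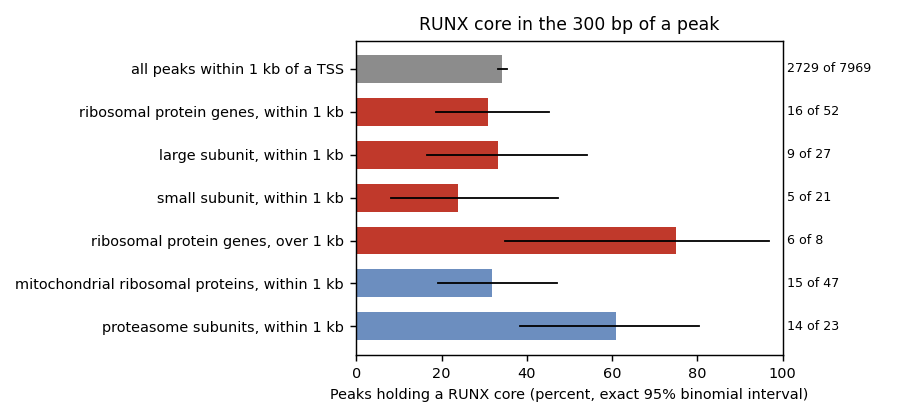
Bars give the percent of peaks that hold TGTGGT or TGCGGT on either strand in their 300 bp, black lines the exact 95% binomial interval, and the text at the right the counts. Ribosomal protein gene peaks within 1 kb of a TSS (30.8%) lie near all peaks within 1 kb of a TSS (34.2%), those over 1 kb away stand at 75% of 8, and proteasome subunit genes at 60.9% of 23.

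Sites of other factors were counted as fixed letters on both strands, as a description of the sequence only. The ETS site CCGGAAGT was in 5.77% of member peaks near a TSS beside 5.78% of all such peaks. The YY1 site AAGATGGC was in 5.77% beside 4.33%, and the NRF1 site GCATGCGC in 3.85% beside 2.71%. The SP1 site GGGGCGG was less frequent, in 15.4% beside 35.4%. The E-box CACGTG was in 13.5% beside 9.19%, and CCAAT in 19.2% beside 22.2%. TATAAA, the forkhead letters TGTTTAC or TATTTAC, and the GATA letters AGATAA or TGATAA were in 3.85%, 1.92% and 3.85%, beside 2.35%, 2.22% and 4.23%.

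In the promoters, the ETS and YY1 letters were more frequent than the background. RefSeq promoter sequences of GRCm38.p6, from 250 bases before to 50 after a start, were matched for 69 of the 89 members, with 81 promoters in all. CCGGAAGT was in 14.8% of them beside 5.31% of the 20488 promoters of protein-coding genes, and AAGATGGC in 9.88% beside 3.11%. GGGGCGG was in 22.2% beside 31.8%. A RUNX core was in 14.8% beside 21.2%. Since members were chosen by name, these shares describe the genes and not RUNX1.

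The start of the mRNA was read from the annotated first base, and the start used in the ovary was not measured. A tract that begins a few bases from the annotated base, as near the starts of Rpl15 and Rpl7a, is missed. A start was counted as a pyrimidine tract when the first base was C and at least 4 pyrimidines followed. This held for 14 members (15.7%, interval 8.88% to 25%), beside 2.2% of protein-coding genes, and beside 1 of 78 mitochondrial ribosomal protein genes and 0 of 40 proteasome genes. With any base within 5 bp of the annotated start allowed, it held for 37 members (41.6%), beside 18.9% of protein-coding genes, so the wider rule raised both. Of the 14, 7 were among the 53 members nearest to a peak (13.2%, interval 5.48% to 25.3%). The other 7 were among the 36 nearest to none (19.4%, interval 8.19% to 36%). By a peak within 1 kb of a TSS, it was 8 of the 58 members with one (13.8%) and 6 of the 31 without (19.4%). Such starts were thus found with and without a peak within 1 kb.

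Starts of 6 members are printed along the strand of the gene, from 12 bases before the first base, with the pyrimidine tract in capitals from that first base. They were chosen after their letters were seen, the first 4 from genes nearest to a peak and the last 2 from genes nearest to none. Of these last 2, Rpl32 has a peak within 1 kb of its TSS that lies nearer to Snora7a.
Rps6, chr4:86857350-86857379, minus strand: cggaagtcgggcCTCTTTTTCgtgacgcct
Rps15a, chr7:118116130-118116159, minus strand: tctttctgccatCTTCCCTCgccggtgagt
Rps18, chr17:33955648-33955677, minus strand: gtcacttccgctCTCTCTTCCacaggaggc
Rpl38, chr11:114668568-114668597, plus strand: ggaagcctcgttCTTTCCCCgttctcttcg
Rpl35, chr2:39005114-39005143, minus strand: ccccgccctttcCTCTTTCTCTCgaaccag
Rpl32, chr6:115808726-115808755, minus strand: cgccgcctcttcCTTCTTCCTCggcgctgc

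Ribosomal protein genes have many processed pseudogenes, and the authors kept only reads that map to 1 place. The ability to map was therefore read from the genome, as the share of 75-base stretches within 250 bp of the main TSS that occur once. Only exact copies were counted, so a stretch called unique may still have a near copy, and the effect of near copies was not tested. All such stretches were unique in 78 of 89 members (87.6%), beside 87.7% of protein-coding genes. They were unique in 48 of 53 members nearest to a peak (90.6%) and in 30 of 36 nearest to none (83.3%). Among genes with unique stretches only, 61.5% of members and 43.1% of protein-coding genes were nearest to a peak.

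The least mappable members were Rps27rt with 60.42% unique stretches, Rps29 with 75.64% and Rpl12 with 87.82%. Of these, Rps29 had a peak, of fold 8.20, in intron 1. The sequence from 250 bases before to 50 after the main start had a median GC content of 59% in members nearest to a peak and of 54.5% in the others, and its part in the presence of a peak was not tested. A snoRNA gene was annotated in 19 of the 53 members nearest to a peak (35.8%) and in 11 of the 36 others (30.6%). Among canonical members these shares were alike, with 19 of 49 (38.8%) and 11 of 28 (39.3%). By a peak within 1 kb of a TSS they were 23 of 54 (42.6%) and 7 of 23 (30.4%). Rpl23 and Rpl32 differ between these measures, since their peaks were given to a snoRNA inside them. The share of all protein-coding genes with a snoRNA was not counted.

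Peaks were spread over the genome with the genes. Members lie on 19 chromosomes and member peaks on 18. All 5 members on chromosome 4 and 10 of 14 on chromosome 7 were nearest to a peak. On the X chromosome it was 1 of 4, namely Rpl39, which had a peak of fold 4.86. Over all chromosomes it was 59.6% of members and 39.1% of protein-coding genes. The share of all genes on each chromosome was not counted, so these counts have no background of their own. They are small, and the chromosomes were picked after they were seen.

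Other genes of protein synthesis were counted from written lists, and those named are among the strongest of each list, chosen after their values were seen. Fau and Rack1, which encode ribosomal proteins that the name rule misses, were each nearest to a peak, with folds of 5.91 and 7.40. So were 21 of 29 initiation factor genes (72.4%, interval 52.8% to 87.3%), with Eif4a2, an RNA helicase, at 15.74 and Eif2s3x, part of the factor that brings the initiator tRNA, at 12.96. Of 5 elongation factor genes, 4 were nearest to a peak, led by Eef1b2, the exchange factor of the tRNA carrier eEF1A, at 21.84.

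Of 32 ribosome biogenesis genes, 20 were nearest to a peak (62.5%, interval 43.7% to 78.9%), among them Nop56, a core protein of box C/D snoRNPs, at 10.84 and Ncl, nucleolin, at 8.26. Fbl, the methyltransferase of the same particles, was nearest to none. Among 7 other mRNAs known for a pyrimidine tract at their start, 4 were, with folds from 4.32 for Npm1 to 8.25 for Pabpc1. All of these shares lay above the 39.1% of protein-coding genes, as did those of mitochondrial ribosomal proteins (62.8%) and proteasome subunits (60%). For the elongation factors (interval 28.4% to 99.5%) and the 7 other pyrimidine tract mRNAs (interval 18.4% to 90.1%), the interval is wide and includes that background. None of the shares was tested against another.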

How the data were processed

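ChIP-seq for RUNX1 (2 samples) and input (2 samples) came from pooled ovaries of CD1 embryos at E14.5. Per the labels and the methods, the authors mapped single-end reads of 75 bases to mm10 (GRCm38), keeping unique hits without duplicates, merged the replicates, called peaks, set them to 300 bp and kept those above limits on enrichment over input and nearby signal. Tools in the submitters' processing notes were HOMER 4.9, bedtools 2.24.0, Picard 1.110 and Bowtie 1.2. The deposited list holds positions, with a fold (a ratio to background) and a p-value from the authors' caller. It holds no counts, so depth per peak is unknown and no replicate error can be given.

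Peaks were assigned to the nearest TSS of 45756 curated RefSeq transcripts (GRCm38.p6, the assembly of mm10), from the peak edge with ties kept, using Python 3.11, numpy 2.4.6, scipy 1.17.1 and numba 0.67.0. The 4 peaks off the assembled chromosomes were left out. Coordinates count from 1. The scripts were tested on simulated data. Alternatives were other assignment rules and transcripts, a fold of at least 8, a p-value under 1e-20, other forms and windows of the RUNX core, other definitions of the start and a set without paralogs.

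The genes named were the 12 members with the strongest peak, the 3 with the weakest, those nearest to more than 1 peak or only to a peak over 1 kb away, up to 8 of highest fold with a RUNX core, those with no peak, and Rps19, Rpl5, Rpl11, Rps14, Rplp0 and Rpsa. Others are said to have been chosen after their values were seen, or are named for a role or an extreme of their group. Members and lists were chosen with earlier results of these data known. Rpl32l, Rpl37rt and Rps23rg1 were added to the list of paralogs after the gene models were read. A few genes that these rules cover are not reported here.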

Additional observations from a re-analysis of the deposited data

How the results depend on the processing

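The counts depended mainly on the limits on peak strength. They fell both for members and for all protein-coding genes. With a fold of at least 8, 20 of 89 members were nearest to 20 peaks, beside 2897 of 21000 protein-coding genes nearest to a peak. With a p-value under 1e-20, it was 29 of 89 members with 29 peaks, beside 3166 of 21000 protein-coding genes. The share of member peaks with a RUNX core, 36.7%, was 16.7% for TGTGGT alone, 20% for TGCGGT alone and 16.7% in the middle 100 bp. The middle 100 bp covered a TSS in 15% of member peaks, beside 50% for the whole peak. A pyrimidine tract started within 5 bp of the annotated start in 37 members (41.6%, beside 18.9% of protein-coding genes), and at the start itself in 14 (15.7%, beside 2.2%). These shifts follow from the narrower or wider definitions. Of 30 alternatives, the other 19 stayed close to the main result. Shares stayed within the exact interval of the main share, medians within 1 SD of the folds of the member peaks, and counts close to the main count. The limit of 1 SD of single folds is wide for a median, so it says little about how stable the median was. With a p-value under 1e-20 the median fold was 8.33, beside 6.94, and was still within it. By the peak midpoint 50 members were nearest to a peak, beside 8025 protein-coding genes. With predicted transcripts it was 52 members, beside 8008 protein-coding genes. Without paralogs and Rps19bp1 it was 49 of 77 members. By another measure, any TSS within 1 kb of a peak, it was 58 of 89, beside 7862 of 21000 protein-coding genes. Assignment by the peak midpoint gave the tied peaks of Rps2, Rpl18 and Rps21 to the other gene, and predicted transcripts removed Rplp0 and Rpl37 and added Rpl7a. No paired analysis was possible because the replicates were merged before peaks were called, and for the same reason no replicate could be left out.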
